A study of Homo sapiens with 10 samples.

Results

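NR3C1 encodes the glucocorticoid receptor, and TSC22D3, FKBP5, KLF9, PER1, DUSP1 and SGK1 are genes that this receptor is known to switch on. These 7 genes were taken as a list of symbols and matched through GENCODE release 29 to the Ensembl identifiers of the counted genes, where each symbol was found once among 63677 identifiers. All 7 passed the filter on low counts, which kept 16756 identifiers.

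The glucocorticoid receptor is a transcription factor that is held in the cytosol by a chaperone complex built on HSP90, binds cortisol or drugs such as dexamethasone, and then moves to the nucleus, where it induces some genes and represses others. In lymphoid cells this programme leads to growth arrest and cell death, which is why glucocorticoids belong to the standard treatment of acute lymphoblastic leukemia. Several of its targets feed back on the pathway, and some of them also answer to the circadian clock, to cAMP or to growth factor signalling.

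The libraries came from RS4;11, an established line of leukemic B-cell precursors (BCP-ALL). VENins lines had been kept in rising concentrations of venetoclax (VEN), an inhibitor of BCL-2, and VENsens lines in the matching amounts of its solvent DMSO. There were 5 lines per group, grown separately from 1 parental line in the same serum-containing medium, with 1 library each, so that p-values measure the spread between lines of a single origin. Line numbers pair the groups by the study's statement alone. Lines of the same number did not deviate together from their groups (correlations from -0.50 to 0.12). The labels of the sequenced libraries name no glucocorticoid, and the comparison asks how the receptor and its targets stood in cells that had become insensitive to VEN.

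The libraries held between 38491516 and 52960365 reads, of which 20631907 to 28323643 were counted on genes. Levels are given as CPM, the counts of a gene relative to the library size after scaling by the trimmed mean of M-values (TMM). Most markers of the labelled cell type were abundant. The 10 B-precursor markers summed to between 3558 and 4016 CPM per library, with IGLL1 between 610 and 899 CPM and PAX5, which was above IGLL1 in all VENsens lines, between 584 and 827 CPM. DNTT was low, at 1.08 to 8.31 CPM in 9 libraries and 27.3 CPM in VENins line 4. Of the 10 markers 5 had a log2 fold change above 0 and 5 below it, with 3 on each side at an unadjusted p under 0.05. The B-lineage transcription factor gene PAX5 was the 1 marker with an adjusted p under 0.05, at 631 ± 34.7 CPM in VENins lines against 783 ± 42.9 CPM in VENsens lines (log2 fold change -0.31, lower in 5 of 5 line numbers, adjusted p = 0.0272). Its adjusted p was 0.242, 0.0597 and 0.0647 without line pair 2, 3 and 5, and over all alternatives it ranged from 1.24e-06 to 0.242. Markers of other cell types summed to less than the B-precursor markers. Of the 7 T and NK cell markers with an identifier, CD3E was the most abundant at 0.651 to 1.04 CPM, KLRD1 was at 0 in all 10 libraries, and the list summed to at most 1.61 CPM. The monocyte markers summed to 7.41 to 12.5 CPM, mostly from CSF1R, with S100A8 and S100A9 at 0. The erythroid and stromal markers summed to 13.2 to 19.0 CPM, mostly from PDGFRB, with HBA1 at 0. A gene listed at 0 in all 10 libraries, here and below, may be unexpressed or may have lost its reads to the annotation used for counting, which was not tested. As a whole library VENins line 5 stood apart from the other VENins lines. The spread between libraries, as chi-square over degrees of freedom with 1 for counting error alone, was 13.4 to 14.4 in the 4 pairs that hold it and 1.93 to 9.89 in the other 16 pairs within groups.

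The start sites of the 7 genes were looked up in the RefSeq promoter windows of GRCh38.p14, each running from 250 bases before a start site to 50 bases after it. All 7 were found, with 19 windows in total, 7 of them for NR3C1, 4 for TSC22D3, 3 for SGK1, 2 for FKBP5 and 1 each for KLF9, PER1 and DUSP1. The bases after the start site were found in a GENCODE transcript of the same gene for 5 of the 7 windows of NR3C1, for 0 of 1 of KLF9 and for all windows of the other genes, so that the window of KLF9 was not matched to a transcript of the counted gene. The counts are per gene, so that transcripts from the 7 start sites of NR3C1, whose windows held between 34.7% and 82.3% G and C, were added together. The full palindrome of the receptor, AGAACA and TGTTCT with 3 bases between them, was searched on both strands and lay in 1 of 35116 windows and in none of the 19. Its core, ACANNNTGT, was present in 5.37% of all windows and, among the 7 genes, in 2 overlapping windows of TSC22D3 that share a single match. The half-site AGAACA, read on either strand, was in 14.8% of all windows and in 1 window each of FKBP5 and SGK1. The E-box CACGTG, the letters bound by clock factors among others, was in 7.26% of windows and in 1 window each of DUSP1, FKBP5 and PER1. The cAMP response element TGACGTCA was in 1.85% of windows and in that of DUSP1. The stretches below show where the matches lie in these promoters, 5′ to 3′ on the gene's own minus strand, with the matching letters in capitals and no overlap between the motifs of DUSP1.
TSC22D3, receptor core, chrX:107775976-107776005: agggtaatttACATGCTGTcatatcccagt
DUSP1, cAMP response element and E-box, chr5:172771288-172771330: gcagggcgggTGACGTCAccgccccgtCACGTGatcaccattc
PER1, E-box, chr17:8152560-8152589: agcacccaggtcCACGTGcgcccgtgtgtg
FKBP5, E-box, chr6:35689125-35689154: gcaagggccagaCACGTGggctggcgtggg
A match describes the letters of these windows, and neither binding nor activity was measured.

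By its mean over the 10 libraries, NR3C1 (ENSG00000113580, chromosome 5) was the most abundant of the 7 genes per kilobase of exon sequence. Its level was 562, 686, 575, 614 and 621 CPM in VENsens lines 1 to 5, and 638, 575, 620, 627 and 498 CPM in VENins lines 1 to 5. The groups overlapped almost fully, with VENsens line 2 at the upper end and VENins line 5 at the lower end. VENsens lines averaged 611 ± 48.5 CPM and VENins lines 591 ± 57.8 CPM (SD, n = 5 each). The fitted log2 fold change of VENins over VENsens was -0.05 ± 0.07 (SE), with a 95% interval from -0.20 to 0.10 and an adjusted p of 0.778 in edgeR's quasi-likelihood test. In percent of the VENsens level, the interval runs from -12.9% to 7.07%. VENins lines were higher in 3 of the 5 line numbers and lower in 2, and the sign of the fitted value turned without line pair 2 (0.0014) or line pair 5 (0.02). In bulk RNA a smaller number of expressing cells and less RNA per cell cannot be told apart, here and for every value that follows.

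**Figure D1:**
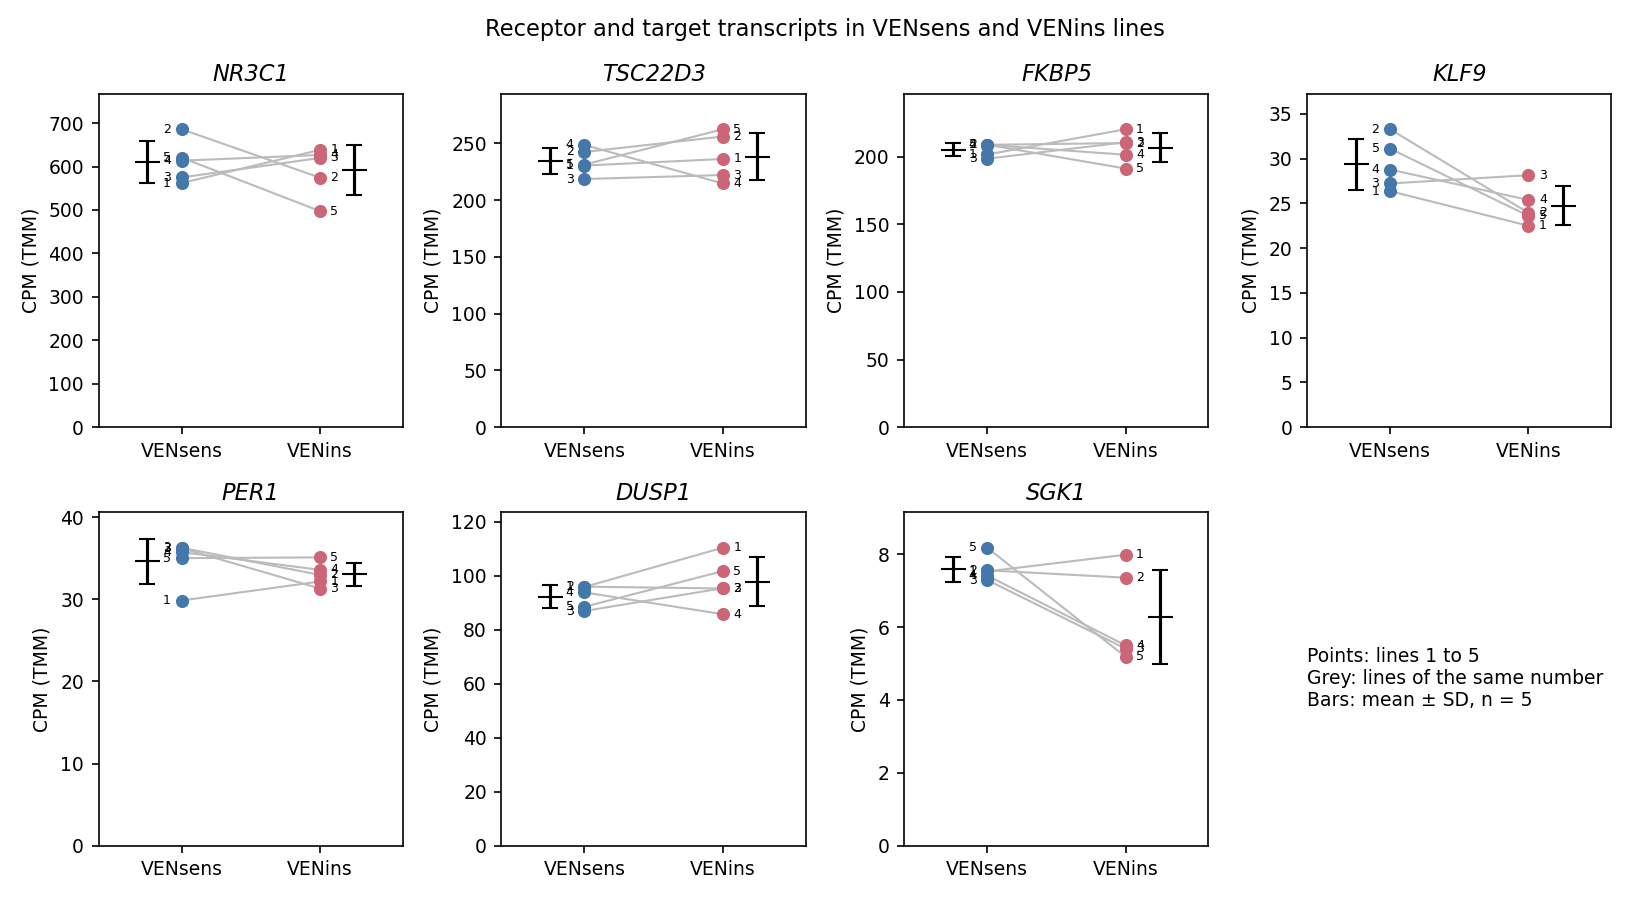
Levels of the receptor gene and its 6 targets in each library, in CPM after TMM (y axis, starting at 0) for VENsens and VENins lines (x axis). Points carry their line number, grey lines join lines of the same number, and bars show the mean ± SD of 5 lines. The groups overlap in each panel, and in SGK1 VENins lines 3, 4 and 5 lie between 5.18 and 5.50 CPM, below the lowest VENsens line at 7.29 CPM.

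FKBP5 (ENSG00000096060, chromosome 6) encodes a co-chaperone of HSP90 that lowers the receptor's affinity for its ligand and is among its most responsive targets. VENsens lines 1 to 5 had 202, 209, 199, 209 and 209 CPM, and VENins lines 1 to 5 had 220, 210, 211, 202 and 191 CPM. All VENsens values lay inside the range of the VENins lines. Its fold change was 0.01 ± 0.05 on the log2 scale, with an interval from -0.11 to 0.12 and an adjusted p of 0.961. FKBP5 was also the steadiest of the 7 genes. The SD of its log2 CPM within groups was 0.06, at percentile 10.6 of the 11361 genes with a mean of at least 5 CPM. Its small fitted value was below 0 without line pair 1 (-0.02) or line pair 3 (-0.01).

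TSC22D3 (ENSG00000157514, chromosome X) encodes GILZ, a leucine zipper protein that carries part of the anti-inflammatory and lymphocyte-directed action of glucocorticoids. It measured 230, 242, 219, 249 and 231 CPM in VENsens lines 1 to 5, and 236, 256, 222, 215 and 262 CPM in VENins lines 1 to 5. VENins line 4 held the lowest and VENins line 5 the highest value of the 10 libraries. For TSC22D3 the log2 fold change was 0.02 ± 0.06, with an interval from -0.10 to 0.15 and an adjusted p of 0.896. VENins lines were higher in 4 of 5 line numbers, and without line pair 5 the fitted value was -0.02.

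KLF9 (ENSG00000119138, chromosome 9) encodes a zinc finger repressor that is induced directly by the receptor and in turn acts on other glucocorticoid targets. Its level was 26.4, 33.3, 27.2, 28.8 and 31.1 CPM in VENsens lines 1 to 5, and 22.5, 23.9, 28.2, 25.4 and 23.6 CPM in VENins lines 1 to 5. VENins lines 1, 2, 4 and 5 lay below every VENsens line, and VENins line 3 lay within the VENsens range. The log2 fold change was -0.25 ± 0.08, with an interval from -0.41 to -0.08 and an unadjusted p of 0.0069. After adjustment over 16756 genes p was 0.155, and the gene held rank 745 by p. In DESeq2 without the line number, the adjusted p of KLF9 was 0.0472 at a log2 fold change of -0.24, the only setting among those tried that took a member past the threshold. With the line number DESeq2 gave 0.161, and over all alternatives the adjusted p ranged from 0.0472 to 0.584.

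SGK1 (ENSG00000118515, chromosome 6) encodes a serum- and glucocorticoid-regulated kinase related to AKT. VENsens lines 1 to 5 had 7.53, 7.56, 7.29, 7.41 and 8.18 CPM, and VENins lines 1 to 5 had 7.99, 7.36, 5.41, 5.50 and 5.18 CPM. VENins lines 1 and 2 were at the VENsens level, whereas VENins lines 3, 4 and 5 were below all VENsens lines. The log2 differences within line numbers 1 to 5 were 0.08, -0.04, -0.42, -0.42 and -0.65. The fitted log2 fold change was -0.29 ± 0.12, with an interval from -0.54 to -0.04, an unadjusted p of 0.0255 and an adjusted p of 0.241. Without line pair 5 the log2 fold change was -0.20. SGK1 varied more between lines than the other 6 genes. The SD of its log2 CPM was 0.06 among VENsens and 0.28 among VENins lines, and the pooled value stood at percentile 94.2 of the genes above 5 CPM. It also rested on the fewest reads, 119 to 207 per library, and at 119 counts the counting error alone is 9.17%.

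PER1 (ENSG00000179094, chromosome 17) encodes a repressor of the circadian clock that glucocorticoids induce. The values were 29.9, 36.3, 36.2, 35.8 and 35.0 CPM in VENsens lines 1 to 5, and 32.2, 33.0, 31.3, 33.6 and 35.1 CPM in VENins lines 1 to 5. VENsens line 1 stood apart below the other VENsens lines, and all VENins values lay between it and VENsens line 2. PER1 had a log2 fold change of -0.07 ± 0.07, with an interval from -0.21 to 0.07 and an adjusted p of 0.666, and the value was -0.11 without line pair 1 and -0.03 without line pair 3.

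DUSP1 (ENSG00000120129, chromosome 5), whose promoter stretch is given above, encodes a phosphatase that switches off MAP kinases and is induced by glucocorticoids as well as by the kinases themselves. VENsens lines 1 to 5 had 95.9, 96.0, 87.0, 93.9 and 88.6 CPM, and VENins lines 1 to 5 had 110, 95.3, 95.4, 85.8 and 102 CPM. VENins lines 1 and 5 were above every VENsens line and VENins line 4 was below all of them. DUSP1 had a log2 fold change of 0.08 ± 0.06, with an interval from -0.05 to 0.21 and an adjusted p of 0.553, and the value was 0.05 without line pair 1 or 5 and 0.13 without line pair 4.

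**Figure D2:**
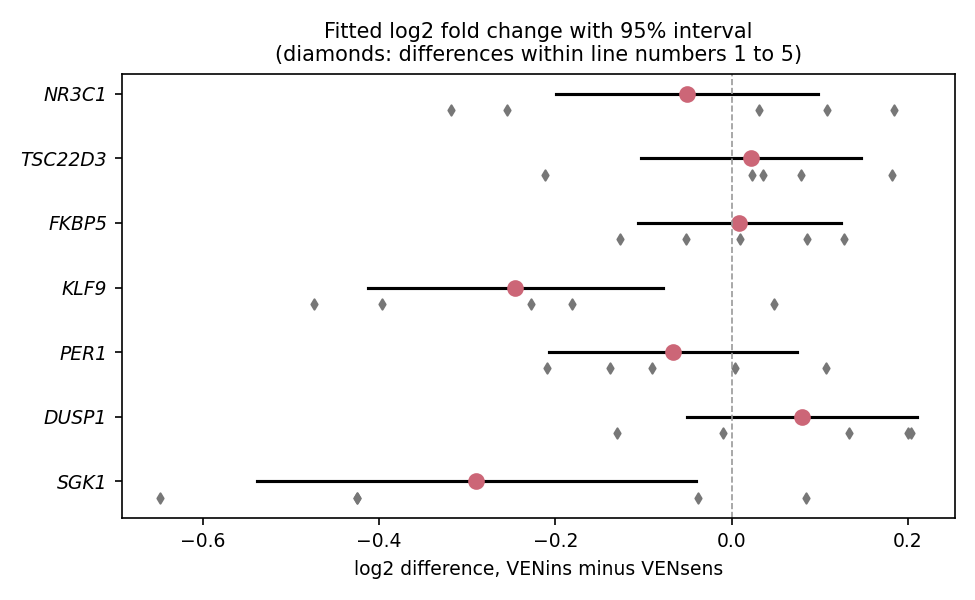
Fitted log2 fold change of VENins over VENsens lines (x axis) for the 7 genes (y axis), with the 95% interval from edgeR as a bar and the 5 differences within line numbers as diamonds. The intervals of KLF9 (-0.41 to -0.08) and SGK1 (-0.54 to -0.04) lie below 0, and those of the other genes include 0.

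In edgeR, whose model held both line number and condition, 0 of the 7 genes had an adjusted p under 0.05. Of all 16756 genes 33 did (0.197%), of which 6 (0.0358%) had higher and 27 (0.161%) lower levels in VENins lines. At an unadjusted p under 0.05 there were 2 of the 7, KLF9 and SGK1, both lower, beside 16.2% of all genes and 8.38% on the lower side. DESeq2 with the line number called 0 of the 7 and 217 genes in all (1.3%). It gave no adjusted p to 3899 of the 16756 genes, or 4550 without the line number, and its shares of all genes count these as not called. Without the line number edgeR called 0 of the 7 against 0.889% of all genes, and DESeq2 called 1, KLF9, against 4.41%. With no filter on low counts edgeR called 0 of the 7 against 2.02% of the genes tested. In that fit the prior degrees of freedom were infinite, so that genes shared a common trend of the spread. Its calls, here and for the lists below, therefore leave out how much a single gene varied between lines. The groups did not overlap for 0 of the 7 genes, beside 4.66% of all genes. The same direction in all 5 line numbers was found for 0 of the 7, beside 14.3% of all genes (7.61% higher and 6.66% lower). In a list of 7 genes, 0 is close to both shares and does not set these genes apart. The total of called genes moved with the lines used, to 57, 6, 17, 331 and 9 without line pair 1, 2, 3, 4 and 5, and 0 of the 7 genes were called in each of these fits.

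**Figure D3:**
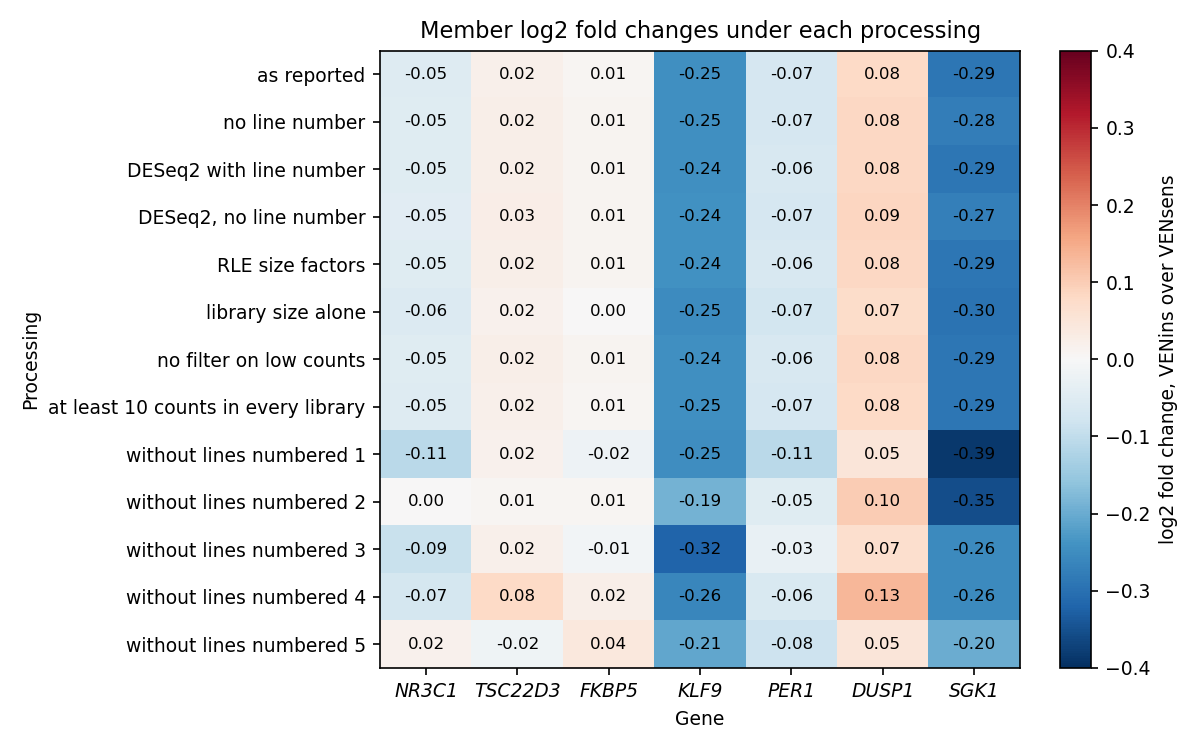
Log2 fold change of VENins over VENsens lines for each of the 7 genes (columns) under the reported fit and each alternative (rows), with the value in each cell and its colour on the scale at the right. KLF9 and SGK1 are below 0 in each row, from -0.19 to -0.32 and from -0.20 to -0.39. NR3C1, TSC22D3 and FKBP5 change sign when single line pairs are left out.

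The 7 genes covered a wide range of expression. Per kilobase of exon sequence, NR3C1 had a mean of 65.6 CPM, TSC22D3 49.6, DUSP1 47.1, FKBP5 19.4, KLF9 5.22, PER1 4.83 and SGK1 0.695. NR3C1 and TSC22D3 overlapped in their ranges over the 10 libraries (54.2 to 74.8 and 45.0 to 55.0 CPM per kilobase), as did TSC22D3 and DUSP1, and KLF9 and PER1. DUSP1 was above FKBP5, FKBP5 above KLF9 and PER1 above SGK1 in every library. On this scale, NR3C1 stood at percentile 94.7 of the tested genes with a name, and SGK1 at percentile 17.1. The exon sequence joins the exons of all annotated transcripts of a gene. Its length was 2019 bases for DUSP1, 9992 for SGK1 and 10628 for FKBP5. The order and the percentiles thus depend on the annotation, and the transcripts in use were not determined.

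Whether the 7 genes varied together across the 10 libraries was examined for all 21 pairs with log2 CPM. Pearson's r was above 0 for 14 pairs and below 0 for 7. The highest r was that of NR3C1 and FKBP5 (r = 0.73, permutation p = 0.0192, adjusted over 21 pairs 0.402; Spearman's rho = 0.49, permutation p = 0.156, adjusted 0.712), two-sided with 100000 resamples. Without the 2 libraries farthest from the median of NR3C1, r was 0.58. Without line pair 5 it was 0.47, so that its size rested in part on this line pair. VENins line 5 had the lowest value of both genes. TSC22D3 and DUSP1 followed with r = 0.54 (permutation p = 0.104, adjusted 0.63; rho = 0.56, permutation p = 0.0969, adjusted 0.712), and r was 0.52 without the 2 farthest libraries and 0.81 without line pair 1. For NR3C1 and KLF9 r was 0.54 (permutation p = 0.107, adjusted 0.63; rho = 0.35, permutation p = 0.33, adjusted 0.778), and it was 0.02 without the 2 libraries farthest from the median of NR3C1, so that this relation rested on them. Leaving out line pairs gave r between 0.29, without line pair 2, and 0.79, without line pair 1. The lowest r was that of KLF9 and DUSP1, at -0.48 (permutation p = 0.165, adjusted 0.692; rho = -0.33, permutation p = 0.347, adjusted 0.778), and -0.44 without the 2 farthest libraries. It was -0.18 without line pair 1 and -0.67 without line pair 2, and it was 0.14 within VENsens and -0.60 within VENins lines. These and the other values within groups rest on 5 libraries each and are given without a test. For NR3C1 and KLF9 r was 0.97 within VENsens and 0.26 within VENins lines, for NR3C1 and FKBP5 0.78 and 0.79, and for TSC22D3 and DUSP1 0.69 and 0.50. These 4 pairs were chosen after their values were seen. In total, 0 of 21 pairs had an adjusted p under 0.05 by Pearson's r and 0 by Spearman's rho in the permutation test, and at an unadjusted p under 0.05 there was 1 by Pearson's r and 0 by Spearman's rho.

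Outside the 7 genes, the protein-coding genes with the most similar profile over the 10 libraries were found among 9625 genes with a mean of at least 5 CPM. Such similarity describes these libraries, and the points share depth and any shift common to a line. NAA25 and ZNF800 were closest to NR3C1 (r = 0.96 for both). AGFG1 was among the closest to FKBP5 (r = 0.95), and TSC22D3 was closest to TSPAN17 (r = 0.96) and INPP5F (r = 0.93). EXOC4 (r = 0.96) and CTSS (r = 0.95) were closest to KLF9, and TMEM41B (r = 0.94) and SLC40A1 (r = 0.92) to SGK1. ERCC3 (r = 0.93) and AMMECR1 (r = 0.87) were closest to PER1, and FOXO6 (r = 0.94) to DUSP1. An r above 0.8 was reached by 532 genes for NR3C1, 272 for KLF9 and 144 for FKBP5, but by 8 genes for PER1.

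Chaperones fold the receptor and hold it ready for ligand. Of 16 genes, 12 had a log2 fold change above 0 and 4 below it, beside 8558 above and 8198 below among all tested genes, and the median was 0.09 against 0.0035 for all. FKBP4, the co-chaperone that opposes FKBP5 and helps carry the receptor to the nucleus, measured 13.9, 13.2, 14.1, 13.4 and 13.5 CPM in VENsens lines 1 to 5, and 15.2, 18.7, 21.1, 21.1 and 15.6 CPM in VENins lines 1 to 5. All VENins lines were above all VENsens lines, and the fitted log2 fold change was 0.42 ± 0.09 (adjusted p = 0.0653). AHSA1, an activator of the HSP90 ATPase, averaged 153 ± 7.19 CPM in VENsens lines and 180 ± 6.61 CPM in VENins lines (log2 fold change 0.23 ± 0.05, adjusted p = 0.0843). HSP90AB1 and HSP90AA1 had the highest levels per kilobase, with log2 fold changes of -0.0043 ± 0.05 and 0.11 ± 0.05. That of HSP90AA1 was 0.07 without line pair 1. The groups did not overlap for 6 of the 16 chaperones, all higher in VENins lines, beside 2.36% of all genes on that side. Besides FKBP4 and AHSA1 these were DNAJA1, STIP1, PTGES3 and PPID. In edgeR with the line number 0 of the 16 had an adjusted p under 0.05, and 6 had an unadjusted p under 0.05, all higher, beside 7.79% of all genes. DESeq2 with the line number called 4 of them, AHSA1, DNAJA1, FKBP4 and STIP1, all higher, beside 1.3% of all genes in either direction. Without the line number DESeq2 called 6, adding PPID and PTGES3, beside 4.41%. Without line pair 1 edgeR called 1, FKBP4 (log2 fold change 0.49, adjusted p = 0.0413), beside 57 of 16776 genes. Without the line number it called 3 (AHSA1, DNAJA1 and FKBP4), beside 0.889% of all genes. With no filter on low counts it called 5, those 3 with PTGES3 and STIP1, beside 2.02% of the genes tested. The adjusted p of FKBP4 ranged from 0.000485 to 0.466 over the alternatives, so that its call depended on the settings.

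Among the wider FKBP family, 5 of 9 tested genes were higher and 4 lower, with a median log2 fold change of 0.07. That median was 0.16, 0.15, 0.019 and 0.030 without line pair 1, 3, 2 and 4, and 0.10 when at least 10 counts were asked of every library. FKBP1A, the binding partner of the drug tacrolimus, averaged 199 ± 11.7 CPM in VENsens lines and 229 ± 21.1 CPM in VENins lines, with a log2 fold change of 0.20 ± 0.06, a higher level in all 5 line numbers and an adjusted p of 0.139. FKBP8, an anchor of BCL-2 at mitochondria, had 220 ± 8.25 and 220 ± 29.2 CPM. For the 9 genes edgeR made 0 calls and gave 3 an unadjusted p under 0.05 (16.2% of all genes). DESeq2 with the line number called 1 (1.3% of all genes), FKBP4. So did edgeR without line pair 1 (57 of 16776 genes) or without the line number (0.889%). With no filter on low counts edgeR called 2, FKBP1A and FKBP4, both higher, beside 2.02% of the genes tested. DESeq2 without the line number called 3, those and FKBP3, all higher, beside 4.41% of all genes.

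Coregulators are the proteins that a bound receptor recruits to open or close chromatin. Of 16 tested genes 4 had a log2 fold change above 0 and 12 below it, beside 8558 and 8198 of all tested genes, with a median of -0.07. CREBBP, a histone acetyltransferase, was at 143, 154, 132, 147 and 143 CPM in VENsens lines 1 to 5 and at 122, 120, 117, 126 and 129 CPM in VENins lines 1 to 5. All VENins lines lay below all VENsens lines (log2 fold change -0.22 ± 0.05, adjusted p = 0.0843). NRIP1, a corepressor of nuclear receptors, varied far more between VENins lines. It had 74.99, 88.3, 84.0, 78.2 and 95.7 CPM in VENsens lines 1 to 5, and 25.4, 23.4, 54.0, 119 and 27.1 CPM in VENins lines 1 to 5. VENins lines 1, 2, 3 and 5 were below all VENsens lines and VENins line 4 was above all of them. Its fitted log2 fold change was -1.05 ± 0.26 (adjusted p = 0.0967), and without line pair 4 it was -1.47 with an adjusted p of 2.25e-05. Over the alternatives the adjusted p of NRIP1 ranged from 2.89e-44, in the fit with no filter on low counts, to 0.561. That lowest value rests on a spread shared by all genes and leaves out the wide spread of NRIP1 between VENins lines. ARID1A, a subunit of the SWI/SNF chromatin remodeller, had 275 ± 8.28 and 252 ± 6.06 CPM, without overlap (log2 fold change -0.12 ± 0.05, adjusted p = 0.238). CARM1, an arginine methyltransferase, had 116 ± 7.93 and 117 ± 10.6 CPM. The edgeR test called 0 of the 16, or 1 (NRIP1) without line pair 4, beside 331 of 16768 genes. It called 1 (CREBBP) without the line number, beside 0.889% of all genes. With no filter on low counts it called 2 (both genes), beside 2.02% of the genes tested. An unadjusted p under 0.05 was found for 5, all lower, beside 8.38% of all genes, and DESeq2 with the line number called 1, CREBBP, beside 1.3%, and without it 2, ARID1A and CREBBP, beside 4.41%. The groups did not overlap for 2 of the 16, both lower, beside 2.3% of all genes on that side. EHMT2 was listed at 0 in all 10 libraries and was not analysed.

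Of 11 genes for related steroid receptors and for steroid supply, 5 were tested. PGR, ESR2, HSD11B1, HSD11B2 and ABCB1 were among those below the filter, with at most 11 counts in any library. NR3C2, the mineralocorticoid receptor, which also binds cortisol, averaged 7.66 ± 0.862 CPM in VENsens lines and 6.22 ± 0.493 CPM in VENins lines, and was lower in VENins lines in all 5 line numbers (log2 fold change -0.30 ± 0.10, adjusted p = 0.161). H6PD, which supplies the cofactor for cortisone reduction, was at 121 ± 9.16 and 99.9 ± 4.76 CPM without overlap (-0.28 ± 0.06, adjusted p = 0.0792). Of the 5 genes 1 did not overlap and 2 were lower in all 5 line numbers, beside 2.3% and 6.66% of all genes on that side. SRD5A3, a polyprenol reductase of the steroid reductase family, was at 27.0 ± 2.61 and 27.6 ± 1.24 CPM. Of the 5, 0 were called in edgeR and 2 had an unadjusted p under 0.05, beside 16.2% of all genes. DESeq2 with the line number called H6PD alone, 1 of the 5, beside 1.3%. Without the line number edgeR and DESeq2 did the same, beside 0.889% and 4.41%, as did edgeR with no filter, beside 2.02%. The list median was -0.19, and it was 0.0035 without line pair 4 and -0.30 without line pair 3.

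Other genes that glucocorticoids are known to induce showed no common direction. Of 30 tested genes, 15 were higher and 15 lower, with a median log2 fold change of 0.00031, or -0.0058 when scaled by library size alone. Leaving out a line pair put that median between -0.01, without line pair 5, and 0.03, without line pair 3. BMF, a BH3-only protein linked to glucocorticoid-induced death of lymphoid cells, measured 60.4, 74.8, 49.4, 51.5 and 53.0 CPM in VENsens lines 1 to 5, and 49.0, 46.4, 46.3, 40.2 and 47.9 CPM in VENins lines 1 to 5. All VENins lines were below all VENsens lines (log2 fold change -0.32 ± 0.08, adjusted p = 0.0878). BCL2L11, which encodes the BH3-only protein BIM, was the other gene of the list without overlap, also lower in VENins lines (log2 fold change -0.21, adjusted p = 0.138). Over all genes, 2.3% did not overlap on that side. IL7R, the receptor chain for interleukin 7, had 715 ± 38.0 and 637 ± 30.8 CPM (-0.17 ± 0.06, adjusted p = 0.177). The chemokine receptor gene CXCR4 had 405 ± 22.1 and 450 ± 37.7 CPM (0.15 ± 0.06, adjusted p = 0.243). Of these 30 genes edgeR called 0, or 1 without line pair 1 (CEBPB, higher), beside 57 of 16776 genes. Without line pair 4 it called 1 (STOM, lower), beside 331 of 16768 genes. Without the filter on low counts it called 4 (BMF and KLF13, lower, and CEBPB and SOCS1, higher), beside 2.02% of the genes tested. In the full fit 3 had an unadjusted p under 0.05 on the higher side and 5 on the lower side, beside 7.79% and 8.38% of all genes, and DESeq2 with the line number called 1, BMF, beside 1.3%, and without it 4, all lower (BCL2L11, BMF, IL7R and KLF13), beside 4.41%. Of the 7 genes of this list that were not tested, TXNIP was listed at 0 in all libraries and was not analysed. ZBTB16, CRISPLD2, CEBPD, PDK4, KLF15 and HIF3A had at most 6 counts in any library.

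**Figure D4:**
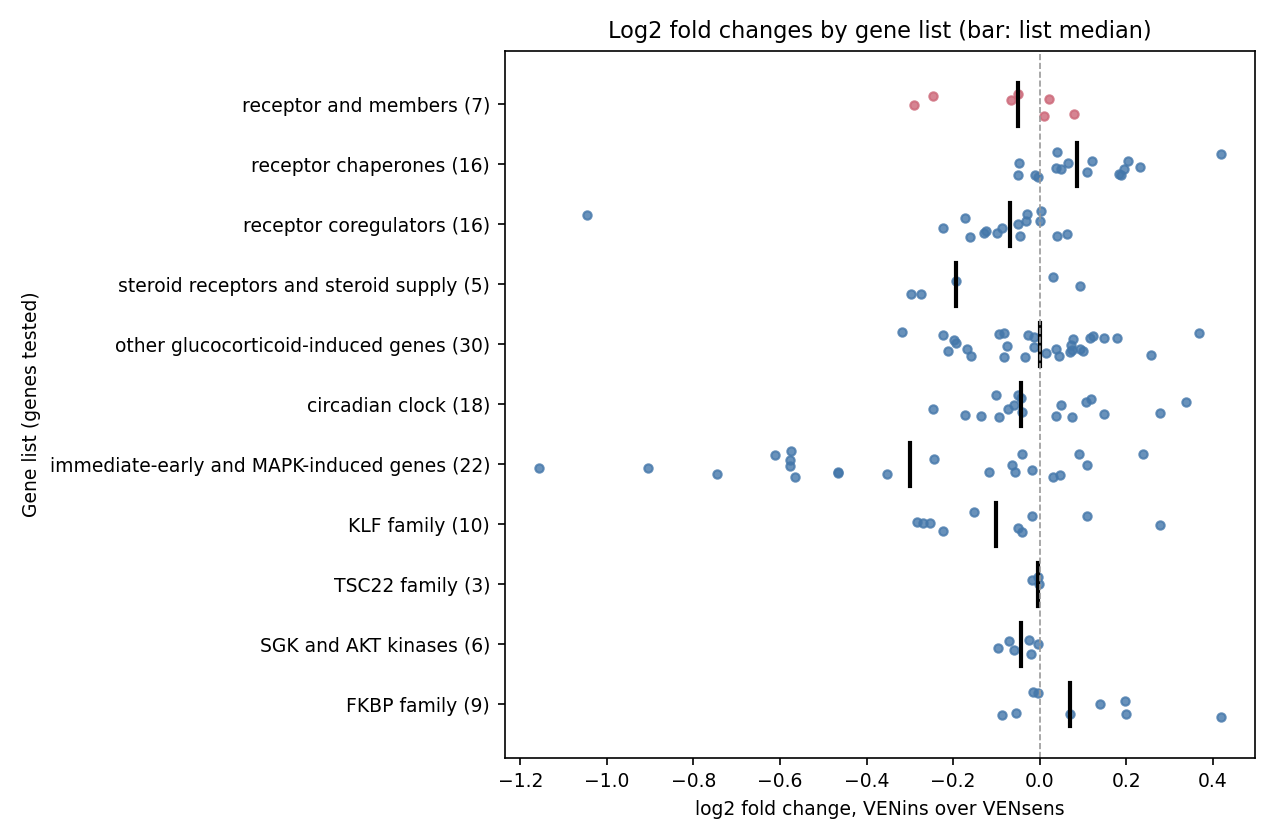
Log2 fold change of VENins over VENsens lines (x axis) for each tested gene of the receptor group and of 10 related lists (y axis, with the number of tested genes in parentheses). Points are genes, spread vertically for legibility, and the bar is the list median. Medians lie between -0.30 for the immediate-early and MAPK-induced genes and 0.09 for the chaperones, and that of the 7 genes is -0.05.

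PER1 belongs to the circadian clock, of which 18 of 21 listed genes were tested, 8 higher and 10 lower in VENins lines, with a median log2 fold change of -0.04 that was -0.0036 without line pair 4, -0.02 without line pair 3 and -0.03 without line pair 2. NFIL3, a repressor of clock output genes, was at 39.9, 39.6, 37.7, 36.2 and 35.1 CPM in VENsens lines 1 to 5, and at 51.0, 52.4, 46.5, 38.0 and 51.6 CPM in VENins lines 1 to 5. VENins line 4 lay within the VENsens range and the other VENins lines above it (log2 fold change 0.34 ± 0.07, adjusted p = 0.061). Without line pair 4 the adjusted p was 0.00648, DESeq2 with the line number gave 0.00748, and over all alternatives it ranged from 0.000556 to 0.429. NR1D1, a nuclear receptor that represses the clock gene ARNTL, averaged 13.0 ± 0.870 and 11.0 ± 2.00 CPM (-0.25 ± 0.09, adjusted p = 0.207). CSNK1E, the kinase that marks PER proteins for degradation, was at 142 ± 5.02 and 139 ± 7.81 CPM. Of the 18 genes 0 were called in edgeR and 3 had an unadjusted p under 0.05, beside 16.2% of all genes. NFIL3 alone was called in DESeq2 with or without the line number (1.3% and 4.41% of all genes). In edgeR NFIL3 alone was called without line pair 4 (331 of 16768 genes), without the line number (0.889%) or with no filter on low counts (2.02%).

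DUSP1 shares its regulation by MAP kinases with immediate-early genes and feedback inhibitors. Of 22 tested genes, 5 had a log2 fold change above 0 and 17 below it, beside 8558 and 8198 of all tested genes. The median was -0.30, and the range from -1.16 to 0.24 includes the value of DUSP1, 0.08. SPRY4, a feedback inhibitor of the pathway, had 9.19, 6.44, 6.83, 6.85 and 8.30 CPM in VENsens lines 1 to 5, and 2.40, 1.92, 3.99, 6.80 and 2.53 CPM in VENins lines 1 to 5. VENins lines 1, 2, 3 and 5 were below all VENsens lines and VENins line 4 was within their range. Its fold change was -1.16 ± 0.22 on the log2 scale (adjusted p = 0.0509), and without line pair 4 it was -1.51 with an adjusted p of 5.28e-05. Over the alternatives the adjusted p of SPRY4 ranged from 4.76e-18, with no filter on low counts, to 0.429. The lowest value again rests on a spread shared by all genes. ETV5, a transcription factor downstream of the same kinases, was at 81.9 ± 8.46 and 56.0 ± 13.9 CPM and lower in all 5 line numbers (-0.57 ± 0.12, adjusted p = 0.061, and 0.00166 without line pair 4). SPRY2 was at 82.5 ± 4.20 and 69.9 ± 8.10 CPM (-0.25 ± 0.07, adjusted p = 0.123, and 0.0491 without line pair 4). JUND, an AP-1 subunit, was at 136 ± 16.3 and 163 ± 38.2 CPM (0.24 ± 0.11, adjusted p = 0.291), with 222 CPM in VENins line 5 and a log2 fold change of 0.10 without line pair 5. With the line number and all lines edgeR called 0 of the 22, but 3 without the line number (EGR1, ETV5, SPRY4), beside 0.889% of all genes. With RLE size factors or library size alone it called 1 (SPRY4), beside 35 and 44 of 16756 genes. With no filter on low counts it called 11, 10 lower and 1 higher (JUND), beside 2.02% of the genes tested. In the reported fit 10 had an unadjusted p under 0.05 on the lower side and 1 on the higher side, beside 8.38% and 7.79% of all genes, and DESeq2 with the line number called 1, SPRY4, beside 1.3%, and without it 5, all lower (EGR1, ETV5, SPRED1, SPRY2 and SPRY4), beside 4.41%. The groups did not overlap for 2 of them, EGR1 and EGR2, both lower, beside 2.3% of all genes. Without line pair 4, where 331 of 16768 genes were called, edgeR called 7 of them, all lower, DUSP6, EGR1, SPRED1 and SPRED2 besides the 3 above, while the log2 fold change of DUSP1 was 0.13 (adjusted p = 0.393). IER3 and DUSP5 were listed at 0 in all libraries, and KLF4 and ETV4 had at most 5 counts.

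**Figure D5:**
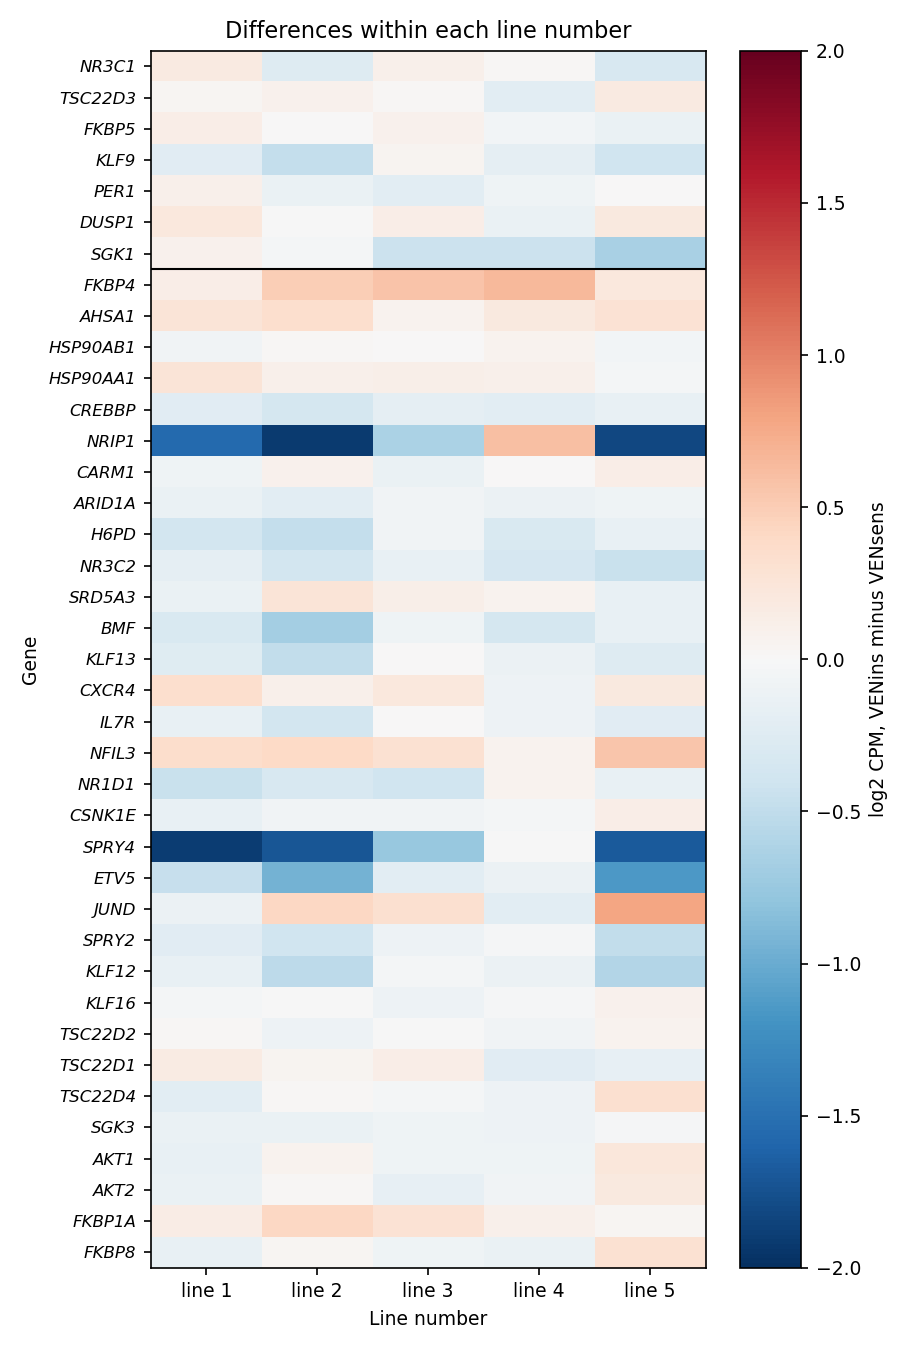
Difference in log2 CPM between the VENins and the VENsens line of the same number (columns) for the 7 genes (above the black line) and named genes of the related lists (below it), on the colour scale at the right. SPRY4 and NRIP1 show the deepest values in line numbers 1, 2 and 5 and values near or above 0 in line number 4. The values of the 7 genes stay between -0.65 and 0.20.

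The KLF family, to which KLF9 belongs, had 2 of 10 tested genes higher and 8 lower, beside 8558 and 8198 of all tested genes. Its median log2 fold change was -0.10, or -0.03 without line pair 2 and -0.02 without line pair 4. KLF12 was at 38.4 ± 5.15 and 31.4 ± 3.07 CPM (-0.28 ± 0.08, adjusted p = 0.136) and KLF13 at 192 ± 15.8 and 164 ± 8.96 CPM (-0.22 ± 0.07, adjusted p = 0.133). In the same fit KLF9 had -0.25. KLF16, next to KLF13 in level per kilobase, had 45.3 ± 2.65 and 44.7 ± 2.47 CPM. Of the 10 genes 0 were called in edgeR and 0 in DESeq2 with the line number. Without it DESeq2 called 3, KLF7, KLF12 and KLF13, all lower, beside 4.41% of all genes. The groups did not overlap for 1 gene, KLF7, lower in VENins lines, beside 2.3% of all genes. An unadjusted p under 0.05 was found for 3 on the lower side and for 1, KLF8 (0.28), on the higher side, beside 8.38% and 7.79% of all genes. Without line pair 4 edgeR called 1, KLF3, lower, beside 331 of 16768 genes. With no filter on low counts it called 2, KLF12 and KLF13, both lower, beside 2.02% of the genes tested. The 3 other TSC22 family genes had log2 fold changes between -0.02 and -0.0018, of which that of TSC22D4 was 0.00014 with RLE size factors. TSC22D1 averaged 106 CPM in both groups, TSC22D2 had 61.2 ± 3.27 and 60.5 ± 3.93 CPM, and TSC22D4 had 179 ± 9.06 and 180 ± 23.5 CPM. Among the 6 SGK and AKT kinases the log2 fold changes lay between -0.10 and -0.0032, against -0.29 for SGK1. SGK3 was at 13.2 ± 1.17 and 12.3 ± 0.891 CPM, AKT1 at 132 ± 8.25 and 132 ± 9.98 CPM, and AKT2 at 145 ± 5.07 and 143 ± 14.2 CPM. In edgeR 0 genes of either list were called or had an unadjusted p under 0.05, and DESeq2 called 0 with or without the line number.

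Over the 10 related lists together, 130 of 158 genes were tested. Of these 51 were higher and 79 lower in VENins lines, beside 8558 and 8198 of all tested genes, with a median log2 fold change of -0.03. Some genes, FKBP4 and KLF13 among them, belong to more than a single list. They were counted in each of their lists above and once here. In edgeR with the line number 0 of the 130 were called. An unadjusted p under 0.05 was reached by 14 on the higher and 26 on the lower side, beside 7.79% and 8.38% of all genes, and DESeq2 with the line number called 9, beside 1.3%, and without it 23, beside 4.41%. Without line pair 1 edgeR called 2, beside 57 of 16776 genes, and without line pair 4 it called 11, beside 331 of 16768. Without line pair 2, 3 or 5 it called 0. Without the line number it called 9, beside 0.889% of all genes, and with no filter on low counts 26, beside 2.02%. RLE size factors and library size alone each gave 1, beside 35 and 44 of 16756 genes.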

How the data were processed

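The authors sequenced poly(A) libraries of the RS4;11 lines as single-end reads and deposited, for each library, the counts of reads per Ensembl gene without normalization. The submitters' processing notes name bcl2fastq 2.20.0.422, Bowtie2 2.3.5.1, SAMtools 1.9, HTSeq 0.9.1 and the build hg19 (GRCh37). Between 24.6% and 26.2% of reads had a low alignment quality and 3.69% to 3.98% fell on several genes, and such reads are absent from the counts. Bowtie2 does not split reads over introns, which can lower the counts of genes with many short exons. The kit does not mark strand, so that reads of DUSP1 and its antisense gene AC022217.3 (at most 9 counts), or of NR3C1 and the pseudogene RPL7P21 (at most 63 counts), cannot be told apart by strand.

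GENCODE release 29 named 52526 of 63677 identifiers, and the unnamed ones carried 0.907% of counts. In R 4.3.3 with edgeR 4.0.16, genes were kept by filterByExpr (minimum count 10, minimum total 15), TMM scaling was applied, and quasi-likelihood F tests compared the conditions, with line number as a blocking factor since the study used a paired analysis. Adjustment followed Benjamini and Hochberg across every gene tested, and a gene was called at an adjusted p under 0.05. Standard errors and 95% intervals were derived from F. A prior count of 2 was used for log2 CPM, and levels per kilobase used the joined length of all exons of a gene in GENCODE. DESeq2 1.42.0, other scalings and filters and fits without a line pair were the alternatives. Correlations used permutation tests in Python 3.11.15 with scipy 1.17.1. Pairs of libraries within a group differed by more than counting error, with the highest chi-square over degrees of freedom (13.4 to 14.4) in the 4 pairs that hold VENins line 5. The steps were tested on simulated data.

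Named were the 7 genes and, for each list, genes with an adjusted p under 0.05, the 2 with the smallest unadjusted p and the 2 with the highest level per kilobase, besides up to 2 genes of similar profile for each of the 7. A few genes that this rule names are left out. Other genes named beside a count were chosen after their values were seen. The lists of related genes and of cell type markers come from general knowledge, and promoter windows from RefSeq. Members and lists were chosen with earlier results of these data known.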

Additional observations from a re-analysis of the deposited data

Results flagged for a closer look

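In groups of 5 lines, the gap of the highest or lowest line to its nearest neighbour was set against the range of the group, for 80 sets of the named genes. Chance alone marks about 1 in 20 such sets, or 4 of 80, and 6 stood out. PER1 was at 29.9 CPM in VENsens line 1, while the other VENsens lines lay between 35.0 and 36.3 CPM. JUND was at 165 CPM in the same line, against 124 to 136 CPM in the others. HSP90AB1 was at 1885 CPM in VENsens line 2, against 2058 to 2121 CPM. CXCR4 was at 385 CPM in VENins line 4, against 453 to 480 CPM. In VENins line 5, TSC22D4 was at 222 CPM, against 167 to 171 CPM in the other VENins lines, and FKBP8 was at 271 CPM, against 200 to 217 CPM.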

How the results depend on the processing

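Calls depended on the model. With no replicate block for the line number 149 genes were called, with DESeq2 and the block 217, with DESeq2 and no block 739, and with no filter on low counts 664. In that last fit edgeR estimated an infinite prior degrees of freedom, so that genes shared a common trend of the spread. Of the genes in the related lists, the same 4 settings called 9, 9, 23 and 26. RLE size factors and library size alone each called 1, SPRY4, beside 35 and 44 genes in all. Of the receptor and its targets, DESeq2 with no block called 1, KLF9 (log2 fold change -0.24). The cause of these differences was not tested.

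The sign of some small log2 fold changes turned. With no block it did for TSC22D1 (0.0043), TSC22D4 (0.0053) and FKBP8 (0.0033), with DESeq2 and the block for TSC22D4 (9.0e-05), and with DESeq2 and no block for TSC22D1 (0.0062), TSC22D4 (0.0073) and FKBP8 (0.0053). With RLE size factors TSC22D4 was at 0.00014, and with library size alone CARM1 was at -0.0037. The cause was not tested.

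Leaving out each line pair gave 6 to 331 called genes and 0 to 11 called genes of the lists. Log2 fold changes then ranged from -0.11 to 0.017 for NR3C1, -0.018 to 0.080 for TSC22D3, -0.021 to 0.043 for FKBP5, -0.32 to -0.19 for KLF9, -0.39 to -0.20 for SGK1, -0.11 to -0.03 for PER1 and 0.05 to 0.13 for DUSP1. Among the named genes of the lists the ranges were 0.10 to 0.35 for JUND, -0.022 to 0.012 for HSP90AB1, -0.029 to 0.035 for CARM1, -0.023 to 0.078 for SRD5A3, -0.044 to 0.0031 for KLF16, -0.049 to 0.049 for TSC22D1, -0.041 to 0.0034 for TSC22D2, -0.081 to 0.049 for TSC22D4, -0.062 to 0.032 for AKT1, -0.082 to 0.0094 for AKT2 and -0.083 to 0.030 for FKBP8.

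Lines of the same number did not deviate together from their groups. The correlations were -0.50, 0.12, -0.04, -0.03 and -0.24 for line numbers 1 to 5 over the 5000 most abundant genes, so that the pairing follows the study's statement alone. At 119 counts, the lowest for SGK1, counting error limits what can be resolved.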
